A study of Mus musculus with 2 samples.

Results

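Neuropeptides reach kidney lymphocytes and vessels through a small set of receptor genes, and 8 genes of this signalling were followed here across cell classes of lupus-prone mouse kidneys. They are Calca, which encodes a peptide hormone precursor, and the receptor genes Calcrl, Ramp1, Ramp2, Ramp3, Nmur1, Vipr1 and Vipr2, 8 of the 31053 genes counted. The members were chosen on measured values of the same libraries. Calca was taken because it led the ILC2 cells (group 2 innate lymphoid cells), so its lead there is a description without a test. All 8 had unique molecular identifiers (UMIs) in kept cells of each library, from 41 for Vipr1 to 5318 for Calca in the young library and from 45 for Nmur1 to 2213 for Ramp2 in the old library. None of the 8 encodes an adrenergic receptor, and adrenergic genes are described from a separate list after the members.

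The experiment was single-cell RNA sequencing (10x Chromium 3′ v3.1) of pooled kidneys, with 1 library from old and 1 from young MRL-lpr mice. MRL-lpr mice carry the lpr mutation of Fas, a death receptor gene, and develop lupus nephritis; the libraries share this strain and genotype, and the labels used here give no treatment and name the ages only as old and young. A density gradient, magnetic enrichment of innate lymphoid cells and a live-cell sort came before loading, so the number of cells in a class does not give its frequency in the kidney. The authors describe the mice of both groups as female, yet UMIs of Y-linked genes without Xist were found in 5807 young and 4151 old cells, while 1667 young and 2982 old cells had Xist without them. The libraries therefore hold cells of both kinds in unlike proportions, and for the 8 members ratios between the libraries in the whole ILC2 and T classes are also given within each kind where the split value fell outside the interval of the class. Ratios of T subsets and of other genes were not split.

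Calca is spliced into the hormone calcitonin or the neuropeptide CGRP, which sensory nerves release and which widens vessels. CGRP acts on a receptor built from CALCRL and RAMP1, whereas RAMP2 or RAMP3 turns CALCRL into a receptor for adrenomedullin, a peptide that acts on endothelium. Neuromedin U, through NMUR1, and vasoactive intestinal peptide, through VIPR1 and VIPR2, can stimulate ILC2s to release type 2 cytokines, and CGRP can restrain their growth.

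The young library had 156787812 UMIs in 15076 barcodes and the old library 126334256 UMIs in 12622 barcodes. The filter on cells (200 genes or more, no more than 20% of UMIs mitochondrial) passed 11429 young cells with a median of 7881 UMIs and 10232 old cells with a median of 6933. The libraries shared 41 barcodes, 26 of them among kept cells. Doublet calls by Scrublet fell on 328 young (2.87%) and 246 old cells (2.40%), and these cells stayed in. A level is a CPM value, the UMIs of a gene scaled to all UMIs of the cells of a class in a library, with an exact Poisson 95% interval. Where values come in pairs, the young library stands before the old. Shares of cells carry exact Clopper-Pearson intervals, and ratios are log2 ratios of CPM with exact binomial intervals. All of these intervals cover counting error only, and with 1 library per age a ratio compares 2 libraries and not the ages.

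Cells were sorted into classes by counts of marker genes, with 18 gates. A single gate was met by 8991 young and 8513 old cells, none by 1930 and 1172, and several by 508 and 547. The ILC2 class had 1326 young and 303 old cells, the T class 564 and 3962, and the proximal tubule class 5795 and 3291. Endothelial cells numbered 279 in the young library but 18 in the old, below the 20 cells asked of a class, so old endothelial values are given as an exception with their counts. Of the other classes, plasmacytoid dendritic cells numbered 74 and 51, NK or ILC1 cells 157 and 194, monocytes 98 and 132, macrophages 76 and 48, B cells 337 and 162, neutrophils 148 and 150, and cells of the loop, distal tubule and collecting duct 34 and 130. Conventional dendritic (47 cells) and erythroid cells (30) reached 20 cells in the young library alone and plasma cells (44) in the old library alone, which gives 13 young and 11 old classes.

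The classes were checked against their markers. The 4 ILC2 markers summed to 2005 and 2681 CPM in ILC2 cells (young, then old), led by Gata3 with 1013 and 1422 CPM, and the gate allowed no CD3 UMI. T cells had 2620.4 and 3222 CPM of the 3 CD3 genes, but also 275 and 126 CPM of the ILC2 markers (4 of 4 genes, led by Gata3), so young T cells carried more ILC2 marker RNA than old ones. The 7 proximal tubule markers summed to 577 and 201 CPM in ILC2 cells and to 641 and 250.4 CPM in T cells, led by Miox in ILC2 cells, so tubule RNA in these classes was higher in the young library. Sox10, a marker of the Schwann cells that accompany nerves, had no UMI in any kept cell.

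Calca (ENSMUSG00000030669; chr7:114631478-114636357, minus strand) had 3649 UMIs in young ILC2 cells, a level of 504 CPM (487–520.2), and 1125 UMIs in old ILC2 cells, a level of 683 CPM (644–725). No other class came near this level. ILC2 cells held 68.6% of all young and 75.1% of all old Calca UMIs, and a further 18.0% and 10.7% lay in cells that met no gate. Clusters were drawn without gates but named by the most common class among their gated cells, so they do not stand apart from the gates. The ILC2 clusters (1838 young and 387 old cells) held 91.5% and 87.9%. Of the ILC2 cells, 48.6% and 47.2% had a Calca UMI, at median depths of 5111.5 and 5515 UMIs. After every cell was thinned to 1000 UMIs, which left out 17 young and 5 old cells, the shares were 24.6% (22.3–27.0) and 31.2% (26.0–36.8). Proximal tubule cells, a background for leukocyte genes, had a Calca UMI in 1.21% and 0.304% of cells at medians of 16021 and 16314 UMIs, and in 0.0520% and 0.0305% after thinning.

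The next levels of Calca lay far below. In the young library monocytes followed with 51.5 CPM (38.3–67.9), but all 50 UMIs came from 1 cell of 10340 UMIs that Scrublet called a doublet. The ratio of ILC2 cells over monocytes was 3.29 (2.89 to 3.72), and without that cell it was at least 7.33, computed against a floor of 3 counts. T cells had 40.1 CPM (33.3–47.8), an interval that overlaps that of monocytes, and ILC2 cells exceeded them by 3.65 (3.39 to 3.92). B, endothelial and NK or ILC1 cells had 3 or fewer UMIs, and proximal tubule cells had 0.904 CPM (0.735–1.10), with no detectable order among these classes. The remaining 6 young classes had no Calca UMI, which allows at most 4.16 CPM in conventional dendritic and 12.8 CPM in erythroid cells. In the old library T cells came second with 5.87 CPM (4.93–6.95), below ILC2 cells by a log2 ratio of 6.86 (6.60 to 7.13), and proximal tubule cells had 0.157 CPM (0.0752–0.289). Macrophages and loop, distal tubule and collecting duct cells had 1 UMI each, and 6 of 11 old classes had none.

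**Figure D1:**
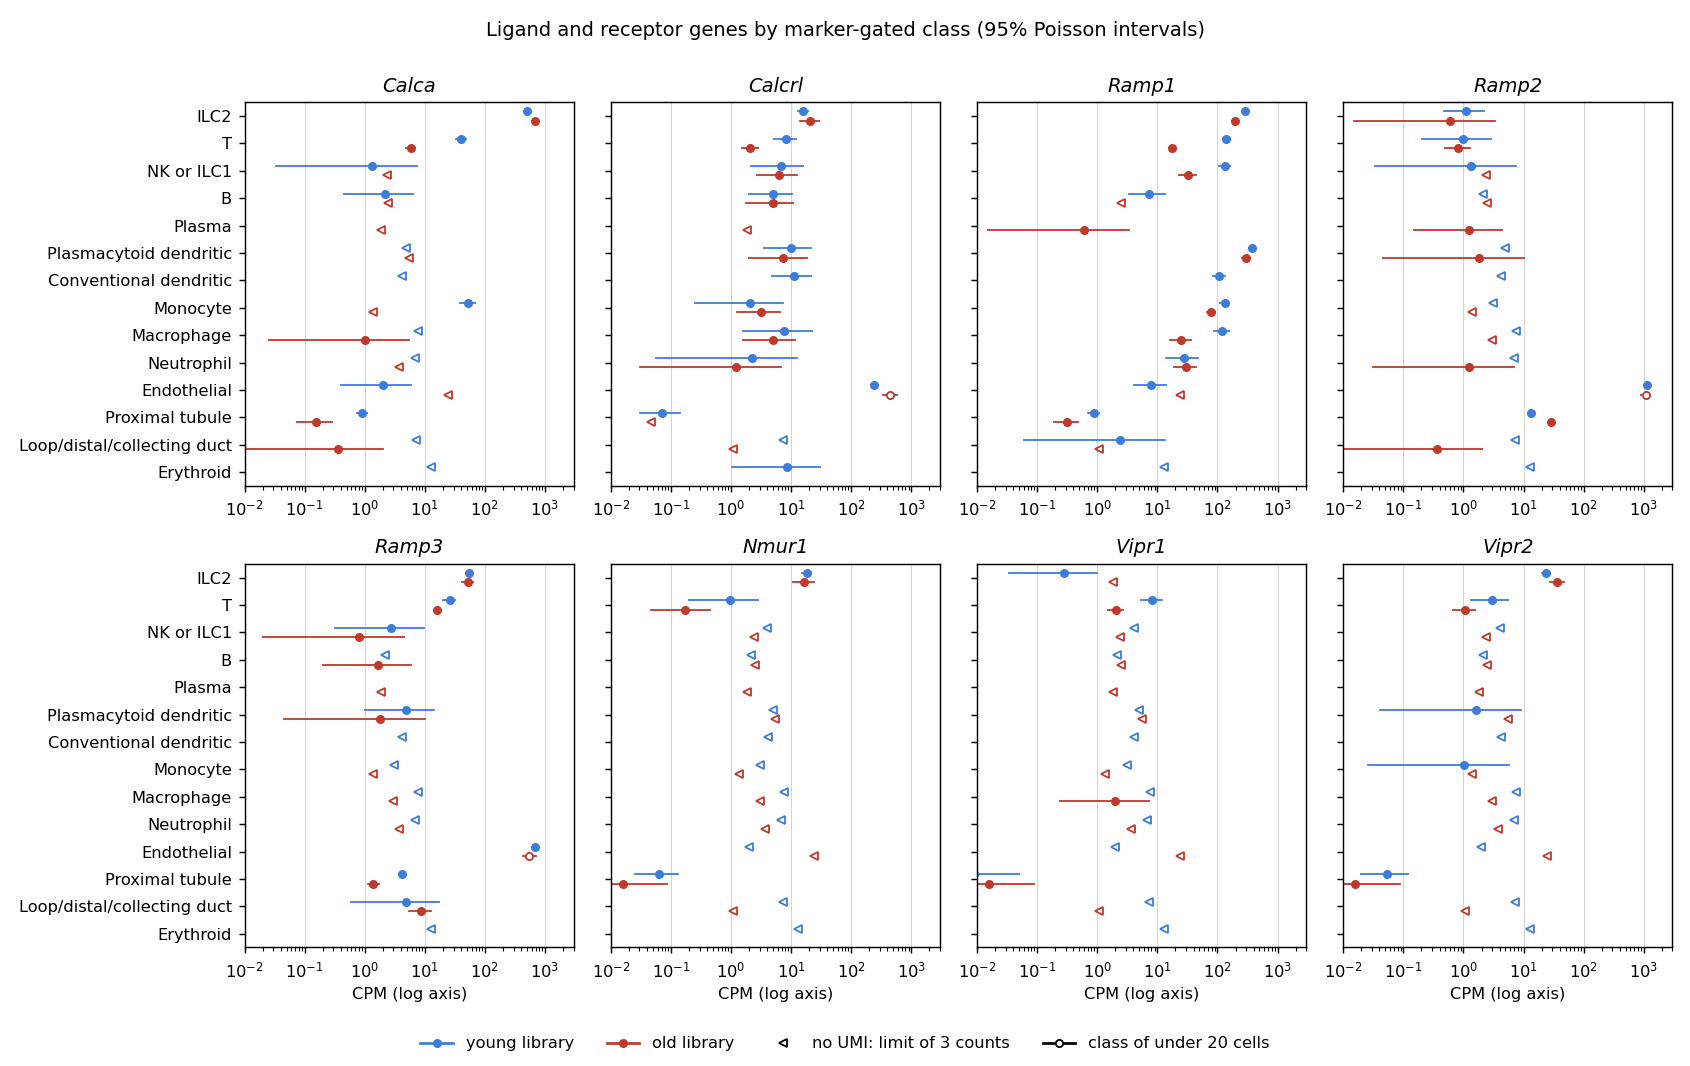
Level of each of the 8 genes in CPM (log axis) by cell class, for the young (blue) and old (red) library, with exact Poisson 95% intervals, open triangles for no UMI (limit of 3 counts) and open circles for classes of fewer than 20 cells. Calca, Nmur1 and Vipr2 were highest in ILC2 cells, while Ramp2 reached 1138.5 CPM in young endothelial cells.

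Within the ILC2 class Calca was spread unevenly over the cells. ILC2 cells without a Calca UMI numbered 681 (51.4%) in the young and 160 (52.8%) in the old library. The 113 young and 28 old cells with at least 10 UMIs made up 8.52% and 9.24% of the class and held 55.5% and 59.6% of its Calca UMIs. Thus a small group of cells carried most of the transcripts in each library. The highest cell had 210 UMIs in the young and 97 in the old library, and the 5 highest cells held 10.8% and 22.3% of the UMIs. Depth was also highest in cells with at least 10 Calca UMIs, at medians of 6056 and 6669 UMIs. It was 4757 and 5315.5 in cells with none, and 5254 and 5212 in cells with 1, so in the old library it did not rise at each step.

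**Figure D2:**
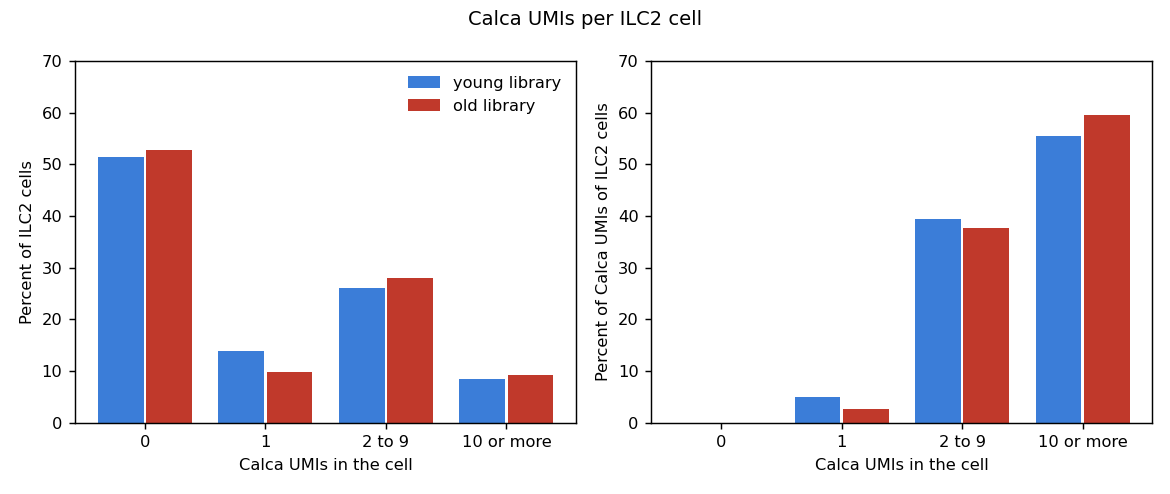
Percent of ILC2 cells and percent of Calca UMIs (bars) by the number of Calca UMIs in a cell, from 0 to 10 or more, in the young and the old library. Cells with 10 or more UMIs were 8.52% of young and 9.24% of old ILC2 cells and held 55.5% and 59.6% of the UMIs.

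ILC2 cells with a Calca UMI also had higher levels of several type 2 effector genes. Areg, which encodes the repair factor amphiregulin, had 1496 CPM in the 645 young cells with Calca and 875 CPM in the 681 without, a log2 ratio of 0.77 (0.71 to 0.84), and in the old library the ratio was 0.38 (0.28 to 0.48). Il13, the cytokine gene of type 2 inflammation and mucus, had 110.2 and 63.5 CPM in the young library (0.79; 0.55 to 1.04) and 127 and 16.7 CPM in the old (2.92; 2.11 to 3.84). For Il5, whose product acts on eosinophils, the ratios were 0.62 (0.27 to 0.98) and 0.999 (0.0846 to 1.97). For Areg, Il13 and Il5 the order was thus the same in each library, with cells holding Calca higher. Ramp3 followed it too, with ratios of 1.09 (0.77 to 1.42) and 0.99 (0.32 to 1.69), whereas Ramp1 was lower in young cells with Calca at −0.21 (−0.33 to −0.08). Csf2 was higher in young cells with Calca at 0.21 (0.08 to 0.35) but not detectably in old ones (0.05; −0.27 to 0.37), and Il4 did not differ detectably in either library. The order did not hold for every product in cells with at least 10 Calca UMIs. There young Csf2 had 173 CPM (145–205), below the 232 CPM (216–248) of cells with none. Old Areg had 1852 CPM (1664–2056) there, an interval that overlaps that of cells with none (1756; 1668–1849). Young Areg, and Il13 and Il5 in each library, remained higher than in cells with none. Cells with Calca had median depths of 5482 young and 5753 old UMIs, against 4757 and 5315.5 without, and the part of depth in these ratios was not tested.

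The same relation can be read from cytokine-positive cells. Among ILC2 cells with an Il5 or Il13 UMI (361 young and 51 old), Calca had 648 and 1171 CPM, against 437 and 571 CPM in the other ILC2 cells, log2 ratios of 0.57 (0.47 to 0.66) and 1.04 (0.85 to 1.22). Ramp3 was higher in the cytokine-positive cells as well, by 0.53 (0.23 to 0.83) and 2.01 (1.36 to 2.66). Ramp1 (−0.27; −0.41 to −0.13) and Vipr2 (−0.73; −1.30 to −0.20) were lower in them in the young library. For Ramp1 in the old library the ratio of 0.23 (−0.18 to 0.62) included 0 in its interval, and so did that of Vipr2 at 0.81 (−0.10 to 1.65). Cytokine-positive cells were read deeper, at medians of 5816 and 5749 UMIs against 4869 and 5314.5.

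Most Calca UMIs of the T class sat in cells with ILC2 marker genes. In the young library 110 of its 123 UMIs lay in the 74 T cells with at least 2 of the 4 ILC2 marker genes, at 209 CPM, and in the old library 73 of 135 lay in 147 such cells, at 56.0 CPM. The other T cells had 5.11 (2.72–8.75) and 2.86 CPM (2.19–3.67), intervals that overlap. By clusters, 84 of the 123 young UMIs lay in 31 T cells of an ILC2 cluster, and 59 of the 135 old UMIs in 11 such cells. Among T subsets, young coreceptor-negative cells had 89.7 CPM and CD4 cells 31.3 CPM, against 4.39 and 10.0 CPM in the old library, Foxp3 cells had 8.13 and 1.14 CPM, and γδ T cells had no Calca UMI. CD8 cells went the other way, with 1 UMI in the young library and 39 of the 135 old UMIs (4.79 CPM), though the interval of their ratio of 2.26 (−0.30 to 7.60) included 0. The 5 highest T cells held 61.0% of the young and 51.9% of the old UMIs of the class. Subset levels thus rested on few cells. In CD4 cells 1 cell held 13 of 17 young and 18 of 63 old Calca UMIs. In coreceptor-negative cells 1 cell held 33 of 103 young and 15 of 30 old UMIs.

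Between the libraries, Calca in ILC2 cells had a log2 ratio, old over young, of 0.44 (0.34 to 0.54). Among ILC2 cells with Y-linked UMIs and none of Xist the ratio was 0.64 (0.52 to 0.76), and among those with the reverse it was 0.11 (−0.09 to 0.31), where no difference was detectable. In T cells the ratio was −2.77 (−3.13 to −2.41), with −2.36 (−2.91 to −1.82) for Y-linked and −4.47 (−5.08 to −3.86) for Xist cells. Among T cells with fewer than 2 ILC2 marker genes, a selection made after the data were seen, it was −0.84 (−1.72 to 0.15). T cells that lay in T clusters kept a wider gap, with 35 young UMIs at 15.1 CPM (10.5–21.0) and 58 old UMIs at 2.65 CPM (2.01–3.42). T cells with at least 2 ILC2 marker genes were 74 of 564 in the young and 147 of 3962 in the old library, so the classes differed in composition. Proximal tubule cells gave −2.53 (−3.63 to −1.59), from 100 young UMIs, of which the 5 highest cells held 32.0% and the highest cell 14 UMIs, and 10 old UMIs.

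Annotation gives Calca 7 transcripts, 6 of them coding, and the coding transcripts end at 6 positions spread over 2894 bases. Counts per gene from the 3′ end do not tell calcitonin from CGRP transcripts, so neither peptide can be named as the product here.

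Promoter sequences (RefSeq, GRCm38.p6; 250 bases before to 50 after a start) were found for 7 of the 8 members, 8 sequences in all, and none for Ramp2. Those of Calca (chr7:114636308-114636607, minus strand) and Nmur1 (chr1:86389312-86389611 and chr1:86388092-86388391, minus strand) are shown, as members led by ILC2 cells whose promoters held a GATA motif. Gata3, the highest of the ILC2 gate markers in these cells, encodes a factor that binds GATA motifs. Capitals mark GATA with A or T before it and A or G after it, on either strand.
Calca: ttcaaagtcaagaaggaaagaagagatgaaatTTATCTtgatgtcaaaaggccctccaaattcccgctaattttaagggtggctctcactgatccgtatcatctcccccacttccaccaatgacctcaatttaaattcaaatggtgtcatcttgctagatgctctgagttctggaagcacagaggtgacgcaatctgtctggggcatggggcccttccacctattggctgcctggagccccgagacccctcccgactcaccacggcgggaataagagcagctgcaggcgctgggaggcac
Nmur1, first start: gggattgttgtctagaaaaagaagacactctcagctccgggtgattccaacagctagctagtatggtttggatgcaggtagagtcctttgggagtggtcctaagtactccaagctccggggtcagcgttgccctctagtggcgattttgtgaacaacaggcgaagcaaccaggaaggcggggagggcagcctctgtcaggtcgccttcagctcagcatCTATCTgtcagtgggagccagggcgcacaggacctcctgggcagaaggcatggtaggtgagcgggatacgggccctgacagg
Nmur1, other start: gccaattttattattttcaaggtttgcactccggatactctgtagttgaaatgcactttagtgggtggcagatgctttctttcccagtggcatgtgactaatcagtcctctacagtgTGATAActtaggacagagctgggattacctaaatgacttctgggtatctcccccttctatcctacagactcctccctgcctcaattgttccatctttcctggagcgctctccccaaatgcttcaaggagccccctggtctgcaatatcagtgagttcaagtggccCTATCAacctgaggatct
The Calca promoter held 1 such motif, starting at base 33 from the 5′ end, and the Nmur1 promoters held 1, at base 219, and 2, at bases 118 and 283. These 3 promoters held the only matches among the 8 member sequences, so Vipr2, also led by ILC2 cells, had none. Among all 32851 promoters of this length 29.8% held at least 1. The form AGATAA, which is among those counted, was in the Calca promoter and in 11.2% of all promoters. The letters TGACG, the core of the cAMP response element, stood in 3 of 8 member promoters (Calca, Ramp1 and Vipr1) and in 20.8% of all. A match describes letters and shows no binding.

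Calcrl (ENSMUSG00000059588; chr2:84330626-84425411, minus strand) encodes the G protein-coupled receptor subunit shared by CGRP and adrenomedullin. It was highest in endothelial cells, with 235 CPM (212–261) from 357 UMIs in the young library and 444 CPM (335–578) from 55 UMIs in the 18 old cells. ILC2 cells had the next value at 15.9 CPM (13.1–19.1) and 20.7 CPM (14.3–28.9), but second place was not resolved in the young library, where the intervals of both dendritic classes, erythroid cells, macrophages and NK or ILC1 cells overlapped that of ILC2 cells, nor by intervals in the old, where that of plasmacytoid dendritic cells did. The ratio of endothelial over ILC2 cells was 3.89 (3.58 to 4.21) in the young library. The following levels formed a shallow order. In the young library conventional dendritic (11.1 CPM), plasmacytoid dendritic (9.84), erythroid (8.54), T (8.15), macrophage (7.58), NK or ILC1 (6.71) and B cells (5.02) had overlapping intervals, with neutrophils and monocytes at 2 or fewer UMIs. In the old library plasmacytoid dendritic (7.28 CPM), NK or ILC1 (6.35), macrophage (4.97), B (4.93) and monocyte cells (3.18) overlapped likewise, T cells had 2.09 CPM (1.54–2.77), and neutrophils had 1 UMI. Cells of the loop, distal tubule and collecting duct had none in either library (at most 7.24 and 1.08 CPM), nor did old plasma cells (at most 1.83 CPM). Proximal tubule cells had 0.0723 CPM (0.0312–0.142) in the young library and no UMI in the old (at most 0.0471 CPM).

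Endothelial cells with a Calcrl UMI made up 61.3% and 77.8% of the class, and 20.1% (15.5–25.5) and 37.5% after thinning. B cells, the background for endothelial genes, had shares of 2.08% and 3.70%, and 0.299% and 0.625% after thinning, at median depths of 3808 and 5939.5 UMIs against 5324 and 6997.5 in endothelial cells. Calcrl in the endothelium was thus well above background. Old over young, the ratio was 0.92 (0.48 to 1.33) in endothelial cells, 0.38 (−0.22 to 0.94) in ILC2 cells and −1.96 (−2.69 to −1.20) in T cells, where it was −1.94 (−2.78 to −1.05) among cells with fewer than 2 ILC2 markers. In young endothelial cells Calcrl had 255 CPM with Y-linked and 88.2 CPM with Xist UMIs, the latter in 26 cells.

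Because Calcrl needs a partner, cells with a Calcrl UMI were examined for Ramp genes. In ILC2 cells 69 of 103 young (67.0%; 57.0–75.9) and 23 of 30 old cells (76.7%; 57.7–90.1) with Calcrl also had Ramp1, against 67.9% and 59.1% of all ILC2 cells. Ramp3 was found in 16 young (15.5%) and 5 old (16.7%) of them and Ramp2 in 1 and 0. Endothelial cells had the other pairing. There 163 of 171 young (95.3%; 91.0–98.0) and 12 of 14 old cells with Calcrl had Ramp2, 158 and 10 had Ramp3, and 2 and 0 had Ramp1. Of all endothelial cells 93.2% and 83.3% had Ramp2 and 88.9% and 77.8% had Ramp3, so these shares too lay near those of the class. Ramp1 with Calcrl, the CGRP receptor pair, was thus common in ILC2 cells with Calcrl and rare in endothelium, where Ramp2 or Ramp3 with Calcrl, the adrenomedullin pairs, prevailed. Of ILC2 cells with Calcrl, 57 young (55.3%) and 14 old (46.7%) also had Calca itself, close to its shares of 48.6% and 47.2% in all ILC2 cells.

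Ramp1 (ENSMUSG00000034353; chr1:91179822-91225196) encodes the CGRP receptor's accessory subunit. Plasmacytoid dendritic cells were highest, with 379 (332–431) and 298 CPM (254–348), and second came ILC2 cells with 293 (280.5–306) and 197 CPM (176–219). The gap between them was small, 0.37 (0.17 to 0.57) and 0.60 (0.32 to 0.88). Young T (138 CPM; 125–152), monocyte (133; 111–158), NK or ILC1 (132; 107–160.4), macrophage (119; 87.3–158) and conventional dendritic cells (108; 85.4–135) did not differ beyond their intervals. Old monocytes had 77.3 CPM (66.2–89.9), followed by NK or ILC1 (32.5), neutrophil (29.6) and macrophage cells (24.9), whose intervals overlapped, and T cells had 17.8 CPM (16.1–19.6). Ramp1 was thus spread over most leukocyte classes, with B cells and old plasma cells (1 UMI) as exceptions. Young neutrophils had 27.3 CPM, and proximal tubule cells had 0.877 and 0.314 CPM. B cells had 7.17 CPM in the young library and none in the old (at most 2.47), and endothelial cells 7.91 CPM and none in the 18 old cells (at most 24.2). A Ramp1 UMI was found in 87.8% and 84.3% of plasmacytoid dendritic cells (median 8020.5 and 10989 UMIs) and, after thinning, in 24.7% (15.3–36.1) and 30.0% (17.9–44.6) of them. The proximal tubule shares were 0.915% and 0.334%, and 0.104% and 0% after thinning.

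Ramp1 was lower in the old library in 7 leukocyte classes beyond its counting intervals. In B cells, with 10 young UMIs and none in the old library, the log2 ratio, old over young, was at most −1.54. It was −2.96 (−3.16 to −2.76) in T cells, −2.26 (−3.02 to −1.53) in macrophages, −2.02 (−2.58 to −1.48) in NK or ILC1 cells, −0.78 (−1.12 to −0.44) in monocytes, −0.57 (−0.75 to −0.40) in ILC2 cells and −0.34 (−0.64 to −0.05) in plasmacytoid dendritic cells. Within ILC2 cells it was −0.38 (−0.63 to −0.14) for Y-linked and −0.80 (−1.11 to −0.51) for Xist cells. Neutrophils, at 0.12 (−0.94 to 1.25), did not differ detectably. In T cells the ratio was −3.06 (−3.30 to −2.82) among cells with fewer than 2 ILC2 markers, −2.49 in cells with Y-linked and −3.99 in cells with Xist UMIs, and −1.93 when classes were taken from clusters. Each T subset was lower in the old library, from −1.39 (−1.99 to −0.77) in Foxp3 cells, the regulatory T cells, through −1.78 (−2.26 to −1.27) in CD4 and −3.19 (−3.76 to −2.62) in CD8 cells to −3.53 (−3.85 to −3.21) in coreceptor-negative cells. The coreceptor-negative cells, T cells without a CD4 or CD8 UMI, had 214 and 18.6 CPM, and Foxp3 cells 167 and 63.7 CPM. A subset defined by absent UMIs can also hold cells whose coreceptor transcripts were missed, so its make-up may differ between the libraries. In the young library it held 103 of the 123 Calca UMIs of the T class, most of which lay in cells with ILC2 markers. Its Ramp1 ratio was not computed without such cells. Proximal tubule markers in macrophages summed to 629 and 80.6 CPM, and their part in the macrophage ratio was not tested.

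Ramp2 (ENSMUSG00000001240; chr11:101246028-101259546) encodes the partner that makes CALCRL an adrenomedullin receptor. It was highest in endothelial cells, with 1138.5 CPM (1085–1193.5) from 1727 UMIs in the young library and 1075 CPM (899.8–1274) from 133 UMIs in the 18 old cells. These levels did not differ detectably (−0.08; −0.35 to 0.17). Proximal tubule cells came second, at 13.1 CPM (12.5–13.8) from 1453 UMIs and 28.6 CPM (27.3–30.0) from 1824 UMIs, below young endothelial cells by a ratio of 6.44 (6.34 to 6.54). Every other class had 19 or fewer UMIs, and 8 of 13 young classes had none. A Ramp2 UMI was found in 93.2% of young endothelial cells, and in 66.0% (60.0–71.7) after thinning, while no B cell of either library had one. In proximal tubule cells the shares were 19.0% and 32.9%, and 1.35% and 3.08% after thinning.

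The proximal tubule level of Ramp2 was higher in the old library, with a ratio of 1.12 (1.02 to 1.22), and also within cells with Y-linked UMIs (1.07; 0.94 to 1.21) and with Xist UMIs (0.96; 0.74 to 1.19). Endothelial markers in these tubule cells summed to 3.37 CPM in the young library (7 of 7 genes, led by Egfl7 at 1.60) and 2.98 CPM in the old (6 of 7, led by Egfl7 at 1.96, with Cdh5 at 0). Their part in the Ramp2 ratio was not tested. The gene overlaps Vps25 on the same strand, which had 738 UMIs in young and 549 in old kept cells.

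Ramp3 (ENSMUSG00000041046; chr11:6658521-6677475) encodes a further accessory subunit, which also pairs with CALCRL for adrenomedullin. Its order was endothelial, ILC2, then T cells in each library. Endothelial cells had 676 CPM (636–719) in the young library and 549 CPM (427–697) from 68 UMIs in the old. ILC2 cells had 53.7 CPM (48.5–59.3) and 51.6 CPM (41.3–63.9), below young endothelial cells by 3.66 (3.49 to 3.83) and above old T cells by 1.71 (1.35 to 2.06). T cells had 25.7 CPM (20.4–32.1) and 15.8 CPM (14.2–17.5), with CD4 cells at 33.2 and 37.8 CPM and CD8 cells at 9.001 and 2.21 CPM. Loop, distal tubule and collecting duct cells had 4.83 and 8.65 CPM and proximal tubule cells 4.22 and 1.40 CPM, and young plasmacytoid dendritic cells, at 3 UMIs, overlapped both. Other classes had 2 or fewer UMIs. A Ramp3 UMI was found in 88.9% of young endothelial cells and, after thinning, in 44.4%, while no young B cell had one.

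Ramp3 in ILC2 cells did not differ detectably between the libraries as a class (−0.06; −0.41 to 0.29), but the value pools unlike kinds of cell, with −0.42 (−0.98 to 0.10) for Y-linked and 0.49 (−0.06 to 1.01) for Xist cells. In endothelial cells the ratio was −0.30 (−0.68 to 0.06). It was −0.71 (−1.06 to −0.34) in T cells and −1.48 (−2.14 to −0.76) in T cells with Xist UMIs, but for Y-linked T cells (−0.40; −0.93 to 0.17) and for T cells with fewer than 2 ILC2 markers (−0.41; −0.87 to 0.08) the interval included 0. In CD4 cells the ratio was 0.19 (−0.50 to 0.97) and in coreceptor-negative cells −1.9999 (−2.58 to −1.41). Proximal tubule cells, at low levels, gave −1.60 (−1.94 to −1.27).

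Nmur1 (ENSMUSG00000026237; chr1:86386303-86426228, minus strand) encodes the neuromedin U receptor of ILC2s. It had 18.2 CPM (15.2–21.6) from 132 UMIs in young and 16.4 CPM (10.8–23.9) from 27 UMIs in old ILC2 cells. T cells came next with 3 and 4 UMIs, below ILC2 cells by 4.22 (2.64 to 6.52) and 6.56 (5.04 to 8.53), and all of these UMIs lay in T cells with at least 2 ILC2 markers. The gene had no UMI in 10 of 13 young and 8 of 11 old classes. The ILC2 class held 67.7% and 60.0% of its UMIs in all kept cells, which include cells in no class. Its UMIs were seen in 9.35% and 7.92% of ILC2 cells, and in 2.14% and 3.02% after thinning, against 0.121% and 0.0304% of proximal tubule cells. Old over young, Nmur1 in ILC2 cells had a ratio of −0.15 (−0.81 to 0.45), so no difference was detectable.

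Vipr1 (ENSMUSG00000032528; chr9:121642716-121672954) and Vipr2 (ENSMUSG00000011171; chr12:116077726-116146261) encode the receptors of vasoactive intestinal peptide and of PACAP, a related peptide. The highest values of the pair lay in different lymphoid classes. Vipr1 was highest in T cells, with 25 UMIs and 8.15 CPM (5.27–12.0) in the young library and 47 UMIs and 2.05 CPM (1.503–2.72) in the old, and ILC2 cells had 2 and 0 UMIs. T cells exceeded ILC2 cells by 4.88 (2.88 to 8.01) in the young library, while old macrophages, at 2 UMIs, did not differ from old T cells (0.04; −1.89 to 3.13). The old lead of T over ILC2 cells was at least 0.17, and the limits of old NK or ILC1, B, neutrophil and plasmacytoid dendritic cells and of young erythroid cells, all without a UMI, lay above the T level, so the lead was not resolved against these classes. Within T cells CD4 cells had the most, 24.0 and 3.65 CPM, and Foxp3 cells had no UMI. A Vipr1 UMI was found in 3.90% and 1.09% of T cells and in 0.536% and 0.179% after thinning, against 0.0173% and 0.0304% of proximal tubule cells before thinning. Old over young, the ratio was −1.99 (−2.72 to −1.23) in T cells, −2.21 (−2.95 to −1.45) in those with fewer than 2 ILC2 markers and −2.72 (−3.76 to −1.61) in CD4 cells.

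Vipr2 was led by ILC2 cells, with 170 UMIs and 23.5 CPM (20.1–27.3) in the young library and 59 UMIs and 35.8 CPM (27.3–46.2) in the old. T cells followed with 2.93 CPM (1.34–5.57) and 1.04 CPM (0.669–1.55), and the log2 ratio of ILC2 over T cells was 2.9998 (2.04 to 4.15) and 5.10 (4.39 to 5.85). ILC2 cells were thus the main class for this receptor, as for Nmur1. Plasmacytoid dendritic cells and monocytes had 1 UMI each in the young library, and 8 of 13 young and 8 of 11 old classes had none. The share of ILC2 cells with a Vipr2 UMI was 10.6% and 16.2%, and 2.44% and 3.69% after thinning, against 0.104% and 0.0304% of proximal tubule cells. Old over young, ILC2 cells had a ratio of 0.61 (0.16 to 1.05), which was 0.33 (−0.30 to 0.93) in cells with Y-linked and 0.86 (−0.21 to 1.84) in cells with Xist UMIs, where the intervals include 0. T cells gave −1.49 (−2.65 to −0.20), with −2.70 (−5.47 to −0.14) for Y-linked cells, which had 4 and 3 UMIs, and −0.13 when classes were taken from clusters.

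**Figure D3:**
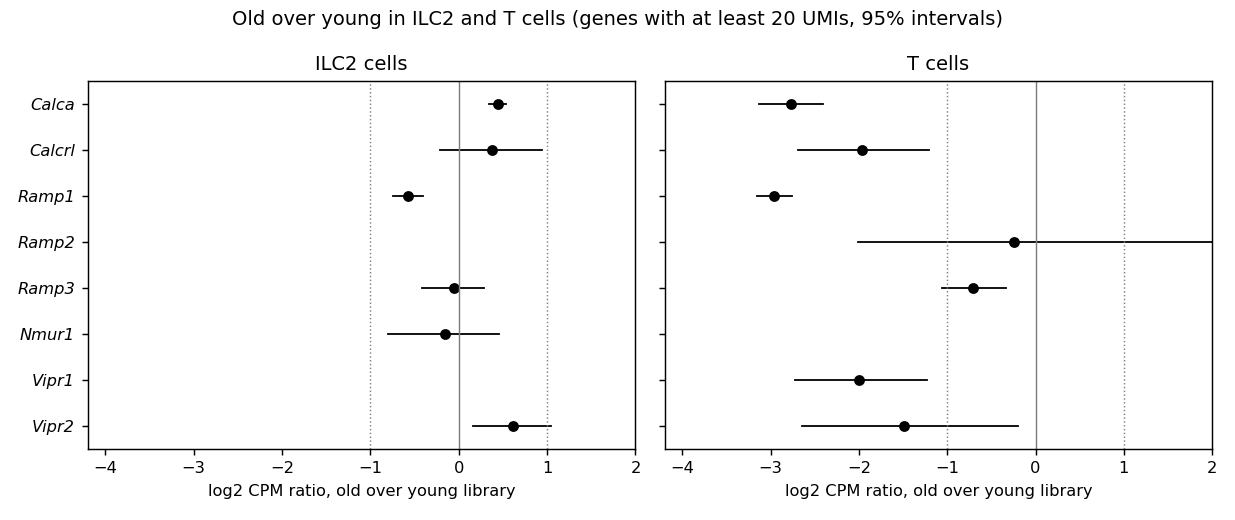
Log2 ratio of CPM, old over young library, for members with at least 20 UMIs in ILC2 cells and in T cells, with exact binomial 95% intervals and dotted lines at a fold of 2. In T cells Ramp1 lay lowest at −2.96, and in ILC2 cells no member passed the dotted lines.

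The members were counted beside all genes with enough UMIs, without a test. In ILC2 cells 0 of the 6 members with at least 20 UMIs passed a fold of 2 between the libraries, where 10.7% of 10620 genes did (3.19% higher and 7.47% lower in the old library). In T cells 5 of 7 passed it, Calca, Calcrl, Ramp1, Vipr1 and Vipr2, all lower in the old library, where 17.2% of 12633 genes passed it, 8.79% on the higher and 8.37% on the lower side. Macrophages had 1 of 1, Ramp1, against 24.3% of 6581 genes (11.5% higher and 12.7% lower). Endothelial cells, with 18 in the old library, had 0 of 3 against 23.8% of 8416 genes (6.81% higher and 17.0% lower). The median log2 ratio of all genes was −0.05, 0.02, −0.02 and −0.07 in these classes. With at least 100 UMIs asked of a gene, 2 of 3 members passed in T cells, against 9.08% of genes. Cells with ILC2 markers were a larger part of the young T class, and without them the ratio of Calca was −0.84, no longer past the fold. Those of Ramp1, Calcrl and Vipr1 were −3.06, −1.94 and −2.21, and that of Vipr2 was −1.33 (−2.82 to 0.47), an interval that includes 0. Another split gave a different reading for Calca. In T cells that lay in T clusters it had 15.1 CPM (10.5–21.0) young and 2.65 CPM (2.01–3.42) old, more than a fold of 2 apart.

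Genes whose pattern over 24 points, the classes of both libraries, was most like each member were ranked by Pearson's r of log2 CPM among 14208 genes. The points share libraries and differ in depth, so r is a description. Calca was most like Stab2 (r = 0.935), 1700113H08Rik (0.929), Nyap2 (0.925), Vipr2 (0.918) and Il13 (0.894). Stab2, known for a scavenger receptor of sinusoidal endothelium, had 674 and 422 CPM in ILC2 cells. For Nmur1 the closest were Bves (0.992), Il5 (0.989) and Gm37552 (0.979), and for Vipr2 they were Nmur1 (0.957), Bves (0.956) and 1700113H08Rik (0.953). Vipr2 was thus among the genes closest to Calca and Nmur1 among those closest to Vipr2. Ramp1 was closest to Ccr2 (0.915), Cd200r1 (0.897) and Gna15 (0.886), and Vipr1 to Foxp3 (0.865), Dapl1 (0.858) and Trav3-3 (0.853), although T cells of the Foxp3 subset had no Vipr1 UMI. Calcrl was closest to Eng (0.772), 4930503L19Rik (0.765) and Slc43a3 (0.764), Ramp2 to Apln (0.942), Apoa1 (0.939) and Rtp3 (0.913), and Ramp3 to Gpx7 (0.912), Hey1 (0.906) and Mycn (0.895).

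Other genes of the pathway come from 8 lists of 79 genes in all, and values are given for genes that reached 10 CPM in a class that led a member, while some genes without a UMI are named as such. Of 17 other peptide ligands, Nmb (neuromedin B) was the 1 that did so in ILC2 cells, at 19.5 and 23.7 CPM. T cells had Nmb at 25.4 and 40.4 CPM and Penk, the enkephalin precursor, at 51.2 and 36.0 CPM, log2 ratios of 0.67 (0.33 to 1.02) and −0.51 (−0.76 to −0.25). Proximal tubule cells had Adm, which encodes adrenomedullin, at 40.0 CPM in each library and Adm2 at 14.5 and 15.8 CPM. Adm, the ligand gene for Calcrl with Ramp2 or Ramp3, was thus highest in tubule cells. B cells had it too, at 15.8 (9.89–23.9) and 19.7 CPM (12.6–29.4). The receptor genes Calcrl, Ramp2 and Ramp3 were highest in endothelium, and Ramp2 came second in tubule cells. The ligands of the other receptors were not seen: Nmu, Nms, Vip and Adcyap1 had no UMI in kept cells of either library. Of the 10 other peptide receptors, 0 reached 10 CPM in any class that led a member.

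Of the adrenergic receptors, Adrb1, the cardiac type of beta receptor, had 58.1 and 17.9 CPM in macrophages (−1.70; −2.67 to −0.75) and 5.87 and 22.6 CPM in T cells (1.94; 1.27 to 2.71). The old library was thus the lower for macrophages and the higher for T cells. Proximal tubule cells had Adra1a at 25.3 and 27.3 CPM and Adra2b at 73.3 and 60.1 CPM, and Adrb3 had no UMI. Th and Dbh, the enzymes that make catecholamines from tyrosine and dopamine, had none either. Ddc, the decarboxylase that makes dopamine, had 14.0 and 43.0 CPM in T cells (1.62; 1.18 to 2.09) and 51.0 and 58.5 CPM in proximal tubule cells.

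Among 7 processing genes, Pcsk1, the convertase that cuts peptide precursors, had 52.6 and 18.8 CPM in ILC2 cells, a ratio of −1.48 (−2.06 to −0.95). Of the 3 processing genes with at least 20 UMIs there, 2 passed a fold of 2, Pcsk1 and Scg5, both lower in the old library, where 7.47% of all genes were past it on that side. Pam, the enzyme that amidates CGRP and adrenomedullin, had 38.2 and 113 CPM in endothelial cells (1.57; 0.61 to 2.43; 18 old cells), and Cpe, a carboxypeptidase of the same route, had 5.26 and 32.0 CPM in proximal tubule cells (2.61; 2.47 to 2.74). Of the 4 breakdown genes, the peptidase Mme had 36.1 and 15.7 CPM in proximal tubule cells (−1.20) and Ece1 560 and 331 CPM in endothelial cells (−0.76; −1.25 to −0.30). In ILC2 cells Dpp4 had 8.14 and 15.8 CPM, Ece1 15.9 and 12.2 CPM and Ide 57.4 and 40.7 CPM.

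The members' receptors act mostly through the stimulatory G protein and cAMP. Of 20 signalling genes, 15 reached 10 CPM in young and 16 in old ILC2 cells, and 2 of 19 with at least 20 UMIs passed a fold of 2 between the libraries, against the 10.7% of all genes. Both were higher in the old library: Crem, a cAMP-responsive transcription factor, with 46.6 and 96.0 CPM (1.04; 0.76 to 1.32), and Pde4d, a cAMP phosphodiesterase, with 9.80 and 21.9 CPM (1.16; 0.54 to 1.76). Gnas, which encodes the stimulatory G protein itself, had 1092 and 903 CPM (−0.28; −0.36 to −0.19), and Pde3b had 40.0 and 75.9 CPM (0.92; 0.61 to 1.23). In T cells 0 of 18 passed, against 17.2% of all genes. Endothelial cells had 2552.5 and 1632 CPM of Gnas and plasmacytoid dendritic cells 2119 and 1796 CPM.

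The 5 ILC2 products set beside Calca were all above 10 CPM in ILC2 cells and none passed a fold of 2. Areg had 1205 and 2018 CPM (0.74; 0.69 to 0.80), and Csf2, the granulocyte-macrophage growth factor gene, had 251 and 199.9 CPM (−0.33; −0.50 to −0.16). Il13 had 88.3 and 71.1 CPM (−0.31; −0.61 to −0.03) and Il5 39.7 and 28.6 CPM (−0.48; −0.95 to −0.03). Calca and Areg were thus the higher in old ILC2 cells as a class, though for Calca not detectably in cells with Xist UMIs, while Csf2, Il13 and Il5 were the lower. Il4, at 10.6 and 13.4 CPM, did not differ detectably (0.33; −0.42 to 1.03). In T cells 4 of 4 products with enough UMIs passed the fold, all lower in the old library, with Il13 at −5.40 and Csf2 at −2.41, where 8.37% of all genes were past it on that side. The ILC2 markers in the T class went the same way, from 275 to 126 CPM, and their part in these ratios was not tested.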

How the data were processed

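The authors aligned reads to mm10 and the deposited matrices hold their UMI count per gene and barcode (Cell Ranger 3). Kept barcodes had 200 genes or more and no more than 20% of UMIs from mitochondria, and Scrublet's doublets stayed in. Classes came from 18 gates on counts of marker genes (for example at least 2 of 4 ILC2 markers and no CD3 UMI), with thresholds set after marker counts per cell had been seen, and needed 20 cells. Members and lists were chosen with earlier results of these data known. Named genes were list genes with at least 10 CPM in a class that led a member, and the 5 genes most like Calca and 3 most like each other member by r of log2(CPM + 1) among genes with at least 100 UMIs over 24 points. List genes named for having no UMI were chosen after their values were seen. Fold counts used genes with at least 20 UMIs and a fold of 2. With 1 library per age no test was run. Thinning was to 1000 UMIs with seed 7. The limit for no UMI was 3 counts. Alternatives were classes from Leiden clusters (2000 variable genes, 20 principal components, 20 neighbours, resolution 1.0), 1 more marker gene per gate, doublets removed, at most 10% mitochondrial UMIs, at least 500 genes, totals without abundant genes, CPM averaged over single cells, cells split by Xist and Y-linked UMIs, thinning to 500 or 2000 UMIs or none, at least 100 UMIs and a fold of 1.5. The fold count and the ranking of like genes were tested on simulated Poisson counts with known answers, and the other steps were not tested this way. Gene positions came from GENCODE M21 (GRCm38) and promoters from RefSeq (GRCm38.p6). Tools were Python 3.11.15, Scanpy 1.11.5, NumPy 2.4.6, pandas 2.3.3, SciPy 1.17.1, scikit-learn 1.9.0, leidenalg 0.10.2, igraph 0.11.9 and Matplotlib 3.10.9. Some genes of the lists are not reported here.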

Additional observations from a re-analysis of the deposited data

Results flagged for a closer look

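Barcodes that missed the cell filter, which no comparison above used, also held UMIs of the members above the limit that a count of 0 allows. In the young library, 3647 such barcodes had 63 UMIs of Calca, 7 of Calcrl, 79 of Ramp1, 91 of Ramp2, 48 of Ramp3, 5 of Nmur1 and 11 of Vipr2. In the old library, 2390 such barcodes had 11 UMIs of Calca, 5 of Ramp1, 105 of Ramp2 and 8 of Ramp3. Calca stood at 5.66 CPM (4.35–7.24) in these young barcodes, far below the 504 CPM of young ILC2 cells, and Ramp2 stood at 8.17 CPM in these young barcodes and at 14.8 CPM in the old barcodes.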

How the results depend on the processing

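Among the values rerun under the alternatives, no ratio whose interval left out 0 changed sign. Outside that set, Ramp1 in proximal tubule cells had a ratio of −1.48 (−2.26 to −0.78) and of 0.36 (−0.91 to 1.60) in cells with Xist UMIs. Calca CPM in young ILC2 cells (504) was 425 with classes from clusters, 719.9 with abundant genes left out of the total and 538 in cells with Xist and no Y-linked UMIs. In old ILC2 cells (683) it was 638, 977 and 582 under the same settings, 759 with 1 more marker gene in each gate and 791.5 in cells with Y-linked and no Xist UMIs. The log2 ratio of ILC2 cells over monocytes in the young library (3.29) was 4.29 with clusters and 2.74 in cells with Y-linked UMIs, and at least 7.33 without 1 monocyte, an alternative chosen after seeing the data. Over T cells in the old library (6.86) it was 7.84 with clusters, 7.23 with 1 more marker gene and 7.19 with CPM averaged over single cells. The ratio of old over young ILC2 cells (0.44) was 0.58 with clusters, 0.59 with 1 more marker gene, 0.34 with CPM averaged over single cells, 0.64 in cells with Y-linked and 0.11 in cells with Xist UMIs. The thinned share of ILC2 cells with Calca was 16.7% young and 20.8% old at 500 UMIs, 34.7% and 37.0% at 2000, and 48.6% and 47.2% unthinned. Genes past the fold in ILC2, T, macrophage and endothelial cells numbered 332, 884, 423 and 318 with at least 100 UMIs and 2407, 3807, 3103 and 3802 at a fold of 1.5, against 1132, 2169, 1599 and 2000, since these settings test fewer genes or ask a smaller fold. The other 24 of these values stayed within their intervals. For the remaining values of single genes, 292 stayed within their intervals and 86 moved. Among these, the ratio of endothelial over ILC2 cells for Calcrl in the young library ranged from 2.11 to 4.29. That of ILC2 over T cells ranged from 1.18 to 2.77 for Ramp3 in the old library and from 1.65 to 4.48 for Vipr2 in the young. The T cells with fewer than 2 ILC2 markers were also chosen after seeing the data. Apart from the fold counts, the cause of these moves was not tested.

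No paired analysis was possible because each age had 1 library. Variation between mice is unknown, and the proportion of cells with Y-linked UMIs differed between the libraries. Nmur1, Vipr1 and Vipr2 rest on few UMIs, so their ratios between the libraries have wide intervals, and the 18 old endothelial cells limit every old endothelial value. Free RNA adds UMIs to cells that do not make them, and depth differs between classes, so shares of cells are to be read beside their background.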
